A study of Mus musculus with 12 samples.

Results

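Radial glia genes were examined in embryonic mouse cortex with and without the transcription factor AP2gamma, which is encoded by Tfap2c. The set held 39 genes, taken as every probe set of the array annotated to 1 of them alone. It comprised 98 of 45101 probe sets, which measured 38 of 18194 named genes. Ccnd2-as had no probe set annotated to it and has no value. Of these, 37 genes and 83 probe sets passed the filter on low values and were tested. The only probe set of Cdh1 lay below the table's median on all 12 arrays and was not. RNA came from rostral and caudal cortex of AP2gamma knockout (KO) and wild-type (WT) mice at embryonic day 14. The 4 groups were caudal KO (animals 1, 2 and 13), caudal WT (animals 4, 6 and 14), rostral KO (animals 7, 8 and 15) and rostral WT (animals 10, 12 and 16), with 3 arrays each. The labels state neither the knockout allele nor any Cre driver, and no other treatment.

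Radial glia are the dividing cells that line the ventricle of the embryonic cortex. Their fibres span the cortical wall, and they give rise to neurons, to basal progenitors and later to astrocytes. They express glial transporters and lipid-binding proteins, the intermediate filaments nestin and vimentin, and SOX transcription factors. They are held at the ventricle by apical polarity and junction proteins and at the pia by integrin contacts with laminin.

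As a check of the labels, Tfap2c read 7.44 to 7.86 in caudal KO against 8.64 to 9.19 in caudal WT cortex on the log2 scale. Rostrally it read 8.09 to 8.63 in KO against 8.54 to 9.06 in WT cortex, where 1 KO array lay above 1 WT array. The cortical progenitor gene Pax6 (9.85 to 10.40 over all arrays) and the cortical neuron gene Neurod6 (11.57 to 12.40) lay above the table's median of 5.21 on every array, as did 34 of the 37 tested radial glia genes. Aldh1l1 exceeded the median on 11 of 12 arrays, and Pla2g7 and Veph1 on 3 each. Xist was high in animals 6 and 12 only, both WT. The Y-linked gene Eif2s3y read 0.20 and 2.60 in these, against 8.49 to 9.15 on the other arrays. Sex, which the labels do not give, is thus partly confounded with genotype. Tissue pieces hold many cell types, so fewer radial glia and less RNA per cell cannot be told apart.

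The promoters of the 3 members of smallest p in the KO comparison were set side by side, since AP2 factors bind GC-rich sites. Each line gives the 250 bases before the transcription start from RefSeq (GRCm38.p6), 5′ to 3′ on the gene's strand. Capitals mark the AP2 palindrome GCCNNNGGC, which reads the same on both strands. The Slc1a3 stretch is chr15:8710808-8711057 on the minus strand, that of Ednrb is chr14:103843702-103843951 on the minus strand, and that of Yap1 is chr9:8004597-8004846 on the minus strand. Ednrb and Yap1 were added for display after their values were seen.
Slc1a3: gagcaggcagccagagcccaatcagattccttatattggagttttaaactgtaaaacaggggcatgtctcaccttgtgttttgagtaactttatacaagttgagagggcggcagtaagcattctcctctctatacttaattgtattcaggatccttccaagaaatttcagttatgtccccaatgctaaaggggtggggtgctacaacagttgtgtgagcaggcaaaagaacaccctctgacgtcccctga
Ednrb: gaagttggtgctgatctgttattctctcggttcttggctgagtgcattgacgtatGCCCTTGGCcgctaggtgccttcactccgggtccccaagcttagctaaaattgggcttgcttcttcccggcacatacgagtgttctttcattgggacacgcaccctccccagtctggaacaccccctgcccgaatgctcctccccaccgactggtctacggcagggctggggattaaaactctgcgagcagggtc
Yap1: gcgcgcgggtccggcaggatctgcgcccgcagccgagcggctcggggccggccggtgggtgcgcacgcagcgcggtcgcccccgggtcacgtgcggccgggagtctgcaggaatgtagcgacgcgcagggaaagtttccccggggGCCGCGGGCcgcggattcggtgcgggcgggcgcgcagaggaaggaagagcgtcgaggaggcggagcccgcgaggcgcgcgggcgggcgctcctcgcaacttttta
The Slc1a3 stretch held no match, while Ednrb held 1 that begins 195 bases before the start and Yap1 held 1 that begins 105 bases before it. Of 33 members with a promoter in the table, 10 had a match in at least 1 promoter. By promoter, this was 25.6% of 39 for the members, 20.6% of 12366 for all tested genes and 13.7% of 32851 in the whole table. The stretches of Gas1, Hmga2, Aldh1l1 and Nr2e1, the members that passed between regions, held none. The matches are letters in a window, and no binding was measured.

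Slc1a3 encodes the glutamate-aspartate transporter GLAST, a defining protein of radial glia. In caudal cortex it read 9.23, 9.46 and 9.26 in KO animals 1, 2 and 13 against 8.49, 8.64 and 9.07 in WT animals 4, 6 and 14. In rostral cortex it read 9.44, 9.68 and 9.98 in KO animals 7, 8 and 15 against 9.25, 8.93 and 9.25 in WT animals 10, 12 and 16. Every KO array lay above every WT array of its region, and WT animal 14 came closest to the KO arrays. The difference averaged over regions was 0.57 ± 0.12 (SE, log2, 1.48-fold, 95% interval 0.32 to 0.82) and did not pass (limma adjusted p = 0.19). It was 0.58 ± 0.16 in caudal and 0.56 ± 0.16 in rostral cortex, with a difference between regions of 0.03. Over 24 alternatives the adjusted p ran from 0.033 to 0.59, and the 1 that passed took animals 13 to 16 as a block. Computed apart, the KO effect was 0.63 for animals 1 to 12 (2 arrays a group) and 0.46 for animals 13 to 16 (1 array a group, so without a spread).

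The 6 probe sets of Slc1a3 did not give 1 picture. The values above come from 1443749_x_at, the brightest, whose suffix marks probes that may also match other transcripts. On 1426340_at every KO array again lay above every WT array of its region, with a mean difference of 0.37 ± 0.12, and on 1452031_at the difference was 0.34 ± 0.12, with overlap in caudal cortex. On 1426341_at it was 0.08 ± 0.17, and the groups overlapped in both regions. The other two probe sets, 1439072_at and 1440491_at, were too dim to be tested. In the fit over all 24676 tested probe sets, 0 of 83 probe sets of radial glia genes passed (0.00811% of all probe sets, each of them lower in KO). At an unadjusted p under 0.05 there were 15, beside 6.77% of all probe sets. Those of Slc1a3 had limma adjusted p from 0.32 to 0.97.

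**Figure D1:**
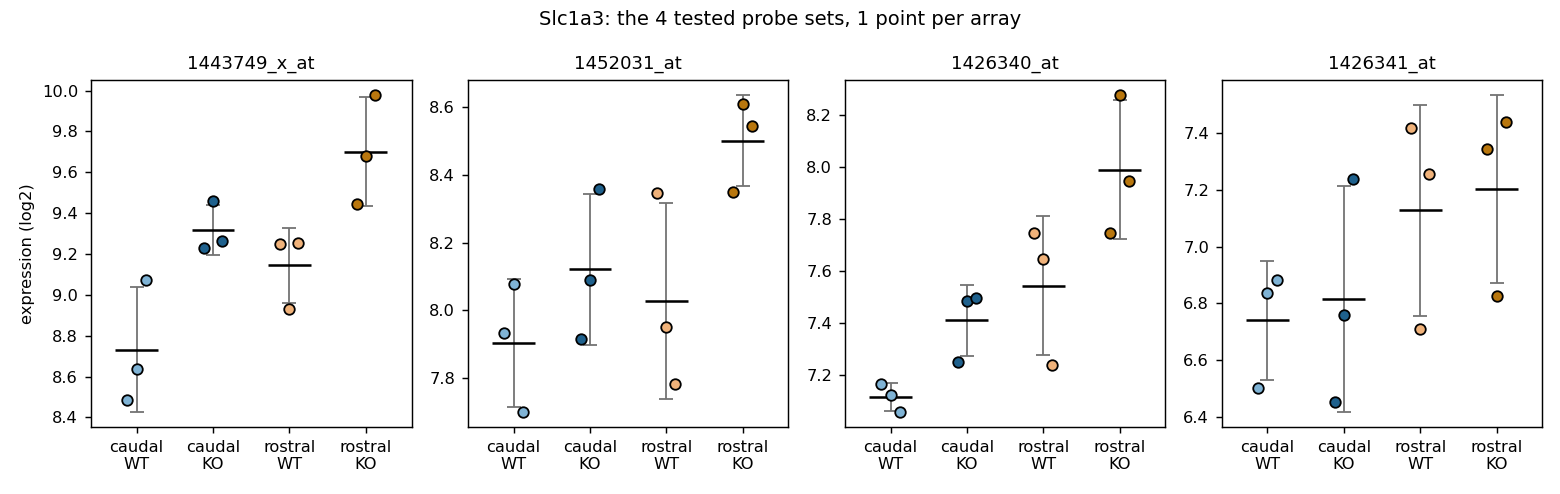
Log2 expression of Slc1a3 on its 4 tested probe sets (panels, each with its own vertical scale that does not start at 0) in the 4 groups. Points are arrays, black lines are group means and grey bars are SD (n = 3). KO and WT arrays of a region do not overlap on 1443749_x_at and 1426340_at, and they overlap in both regions on 1426341_at.

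Of the other 36 tested members, 16 were higher and 20 lower in KO cortex, with a median difference of -0.02, beside -0.01 over all 11785 genes tested. None of the 37 passed averaged over regions, where 0.0339% of all genes did. At an unadjusted p under 0.05 there were 9 members, 5 higher and 4 lower, beside 7.53% of all genes. The 95% interval lay above 0 for 4 of the other 36 members (Ednrb, Fabp7, Sox1 and Sox21) and below 0 for 4 (Yap1, Tnc, Sox3 and Gli3). All 37 intervals lay within 1 log2 unit of 0, and 22 lay within 0.5. On the probe set standing for each gene, Slc1a3 was the only member whose arrays did not overlap in either region with KO higher, as for 0.501% of all genes. No member did so with KO lower (0.679% of all genes). The set was examined because Slc1a3 was known to rise in these data, so its place within the set is no test of that rise.

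**Figure D2:**
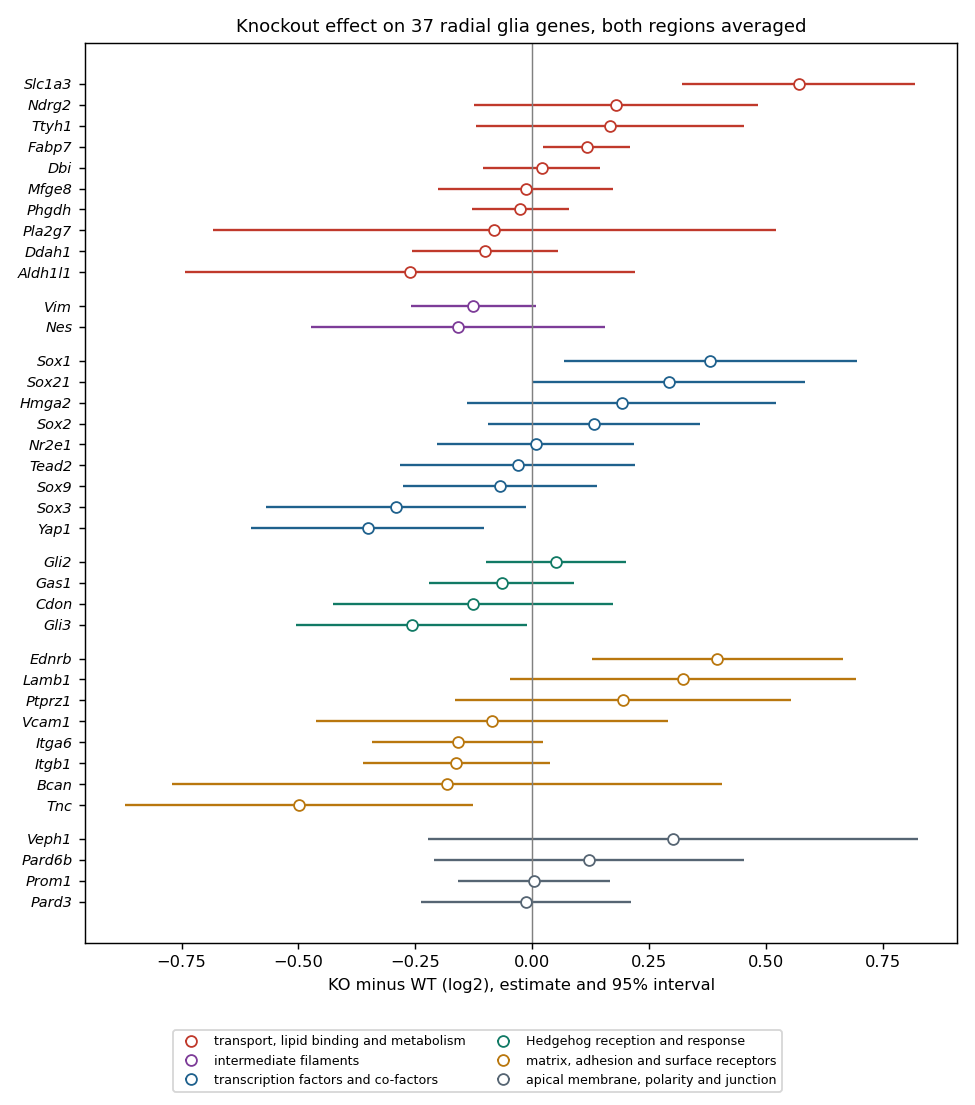
KO minus WT difference (log2, horizontal axis) of the 37 tested radial glia genes (vertical axis), averaged over caudal and rostral cortex, coloured by role. Points are limma estimates and bars are 95% intervals. Slc1a3 at 0.57 is the highest point and Tnc at -0.50 the lowest, and the other members lie on both sides of 0.

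Among the 10 members of transport, lipid binding and metabolism, 5 were higher and 5 lower, and none passed. Fabp7, the brain lipid-binding protein of radial glia, read 12.98, 12.97 and 13.02 in caudal KO against 12.85, 12.98 and 12.88 in caudal WT. Rostrally it read 12.92, 13.09 and 13.04 in KO against 12.94, 12.90 and 12.76 in WT. The groups overlapped in both regions, and the difference was 0.12 ± 0.04 (adjusted p = 0.56, limma). Dbi, which binds acyl-CoA esters, differed by 0.02, and Phgdh, the first enzyme of serine synthesis, by -0.03. Aldh1l1, a folate enzyme used as an astrocyte marker, differed by -0.26 ± 0.22. Both intermediate filament genes were lower without passing, Vim by 0.13 and Nes by 0.16. On 1 of 3 probe sets of Nes, 1453997_a_at, all KO arrays lay below all WT arrays in both regions (-0.35, adjusted p = 0.65 in the limma fit of probe sets). On the other two probe sets of Vim the difference was above 0 (0.17 and 0.08).

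The 9 transcription factors and co-factors went both ways. Sox1, Sox2 and Sox3 encode the closely related SOXB1 factors that keep progenitors undifferentiated. Sox1 read 9.01, 9.15 and 8.76 in caudal KO against 9.12, 8.93 and 8.34 in caudal WT. Rostrally its values were 9.35, 9.67 and 9.42 in KO and 9.10, 9.11 and 8.48 in WT. Its KO arrays stood above the WT arrays in rostral cortex only, and the mean difference was 0.38 ± 0.15 (adjusted p = 0.58, limma). Sox3 read 9.56, 9.44 and 8.88 in caudal KO against 10.14, 9.69 and 9.47 in caudal WT. Rostrally its values were 9.57, 9.61 and 9.53 in KO and 9.64, 9.88 and 9.51 in WT. Groups overlapped in both regions, and the difference was -0.29 ± 0.13. Sox2 differed by 0.13 ± 0.11, with -0.05 in caudal and 0.32 in rostral cortex.

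Yap1 encodes the transcriptional co-activator of the Hippo pathway, and Tead2 one of its DNA-binding partners. Yap1 read 9.21, 9.09 and 8.62 in caudal KO against 9.68, 9.37 and 9.21 in caudal WT. Rostrally its values were 9.10, 9.16 and 9.27 in KO and 9.38, 9.69 and 9.23 in WT. The lowest caudal WT array stood just above the highest KO array, and 1 rostral pair overlapped. The difference was -0.35 ± 0.12 (adjusted p = 0.50, limma). Tead2 differed by -0.03 ± 0.12. Sox21, a repressor of the SOXB2 group, differed by 0.29 ± 0.14, and Nr2e1, the nuclear receptor Tlx, by 0.01 ± 0.10. Of the Hedgehog genes, the repressor-forming factor Gli3 differed by -0.26 ± 0.11 and Gli2 by 0.05, and the co-receptor genes Cdon and Gas1 by -0.13 and -0.07. None of these passed.

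The 8 genes of matrix, adhesion and surface receptors held the members with the largest differences after Slc1a3. Tnc, the matrix glycoprotein tenascin C, read 7.32, 6.65 and 7.09 in caudal KO against 7.27, 7.25 and 8.03 in caudal WT. Rostrally its values were 6.68, 7.03 and 7.24 in KO and 7.53, 7.17 and 7.77 in WT. The groups overlapped by 1 array or more in each region, and the difference was -0.50 ± 0.17 (adjusted p = 0.53, limma). Ednrb, the endothelin B receptor, read 9.22, 8.85 and 9.11 in caudal KO against 8.30, 8.94 and 8.62 in caudal WT. Rostrally its values were 8.96, 8.86 and 8.76 in KO and 8.78, 8.16 and 8.60 in WT. It was higher by 0.40 ± 0.12 with 1 overlapping array in each region (adjusted p = 0.45, limma), and its other two probe sets differed by 0.23 and 0.26. The laminin chain gene Lamb1 read 7.52, 8.04 and 7.90 in caudal KO against 7.94, 7.45 and 8.06 in caudal WT. Rostrally its values were 7.56, 7.99 and 8.55 in KO and 7.07, 7.57 and 7.53 in WT. Its KO effect was 0.00 in caudal and 0.64 ± 0.24 in rostral cortex, with animal 15 the highest array. On that array 5 genes of meninges and mesenchyme averaged 7.86, against 4.82 to 5.93 on the other 11, and 12 vascular genes averaged 6.94, against 6.20 to 6.62. Their part in the value of Lamb1 was not tested. Itgb1 (-0.16) and Itga6 (-0.16), which encode laminin-binding integrin subunits, differed in the other direction.

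None of the 4 tested genes listed under apical membrane, polarity and junction passed. Prom1, the apical membrane protein prominin 1, differed by 0.00 ± 0.08, Pard3 by -0.01 ± 0.10 and Pard6b, which acts with Pard3 in the polarity complex, by 0.12 ± 0.15. Veph1, dim in most samples, differed by 0.30 ± 0.24. By region, no member passed in caudal cortex, where 0% of all genes did, or in rostral cortex, also with 0%. At an unadjusted p under 0.05 there were 5 members in each region, beside 4.06% and 6.69% of all genes. No member passed for the difference of the KO effects (0% of all genes), and 1, Gas1, had an unadjusted p under 0.05 (0.31 ± 0.14, beside 3.04% of all genes). Overlap of KO and WT arrays was counted on the probe set standing for each gene. In caudal cortex the KO arrays of 1 member lay all above WT (Slc1a3, beside 3.84% of all genes). Those of 1 lay all below it (Yap1, beside 3.67%). In rostral cortex 3 members lay all above (Slc1a3, Sox1 and Ndrg2, beside 5.46%) and 0 all below (beside 7.5%). The KO effect had the same sign in both regions for 24 of 37 members (64.9%) and for 56.2% of all genes.

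Between regions, 4 members passed when both genotypes were averaged, and all 4 were higher in rostral cortex. They were Gas1, Hmga2, Aldh1l1 and Nr2e1. This is read against 4.46% of all genes, or 3.21% with rostral higher and 1.26% with caudal higher. Of the 37 members 19 were higher rostrally and 18 caudally, with a median caudal minus rostral difference of -0.05 beside -0.02 over all genes. At an unadjusted p under 0.05 there were 11 members, 10 of them higher rostrally, beside 17.3% of all genes. Overlap between regions was likewise counted on the probe set standing for each gene. The arrays did not overlap in WT for 3 members with caudal higher (4.96% of all genes) and 5 with rostral higher (8.99%). In KO this held for 1 and 9 members (8.78% and 12.1%). The 2 genotypes share no arrays, and the sign of the regional difference was the same in WT and KO for 64.9% of members and 63.5% of all genes.

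Gas1 encodes a surface protein that binds Sonic hedgehog and aids its reception. It read 11.71, 11.68 and 11.58 in caudal KO and 11.72, 11.50 and 11.48 in caudal WT, against 12.04, 11.67 and 11.77 in rostral KO and 12.10, 12.16 and 11.88 in rostral WT. WT arrays of the regions did not overlap, as for 8.99% of all genes with rostral higher, and KO arrays overlapped through rostral KO animal 8. The difference was -0.32 ± 0.07 (1.25-fold, adjusted p = 0.020, limma), and it was the only member to pass in WT cortex alone (-0.48 ± 0.10, adjusted p = 0.044), where 0.942% of all genes passed, 0.687% with rostral higher. A further probe set, 1448494_at, gave -0.58 ± 0.10 with no overlap in either genotype.

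Hmga2, a chromatin protein of young neural stem cells, read 7.81, 8.25 and 8.48 in caudal KO and 7.60, 8.30 and 7.63 in caudal WT, against 8.73, 8.78 and 8.56 in rostral KO and 8.59, 9.01 and 8.33 in rostral WT. Rostral arrays lay above caudal ones in both genotypes, by 0.65 ± 0.15 (1.57-fold, adjusted p = 0.027, limma). Its probe set 1450781_at gave -1.26 ± 0.19. Nr2e1, which maintains neural stem cells, read 8.40, 8.36 and 8.30 in caudal KO and 8.41, 8.28 and 8.02 in caudal WT, against 8.74, 8.68 and 8.49 in rostral KO and 8.71, 8.99 and 8.49 in rostral WT. Again neither genotype overlapped, and the difference was -0.39 ± 0.10 (1.31-fold, adjusted p = 0.038, limma). Its dimmer probe set gave -0.03. On the probe set standing for each gene, Hmga2 and Nr2e1 were the 2 members with rostral arrays above caudal ones in both genotypes. This held for 3.4% of all genes. No member showed the reverse on that probe set (1.39% of all genes). Rostral arrays also lay above caudal ones in both genotypes on the Slc1a3 probe set 1426340_at and the further Gas1 probe set named above.

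Aldh1l1 read 5.39, 5.63 and 5.55 in caudal KO and 4.98, 6.56 and 6.04 in caudal WT, against 6.25, 6.65 and 6.63 in rostral KO and 6.95, 6.53 and 6.62 in rostral WT. Its levels lay close to the table's median, and WT arrays overlapped through caudal animal 6. The difference was -0.91 ± 0.22 (1.88-fold, adjusted p = 0.034, limma). In KO cortex alone no member passed, beside 0.95% of all genes (0.73% with rostral higher), and 6 had an unadjusted p under 0.05. The KO effects on these 4 genes did not pass for a difference between regions (adjusted p = 0.999 for each, limma).

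**Figure D3:**
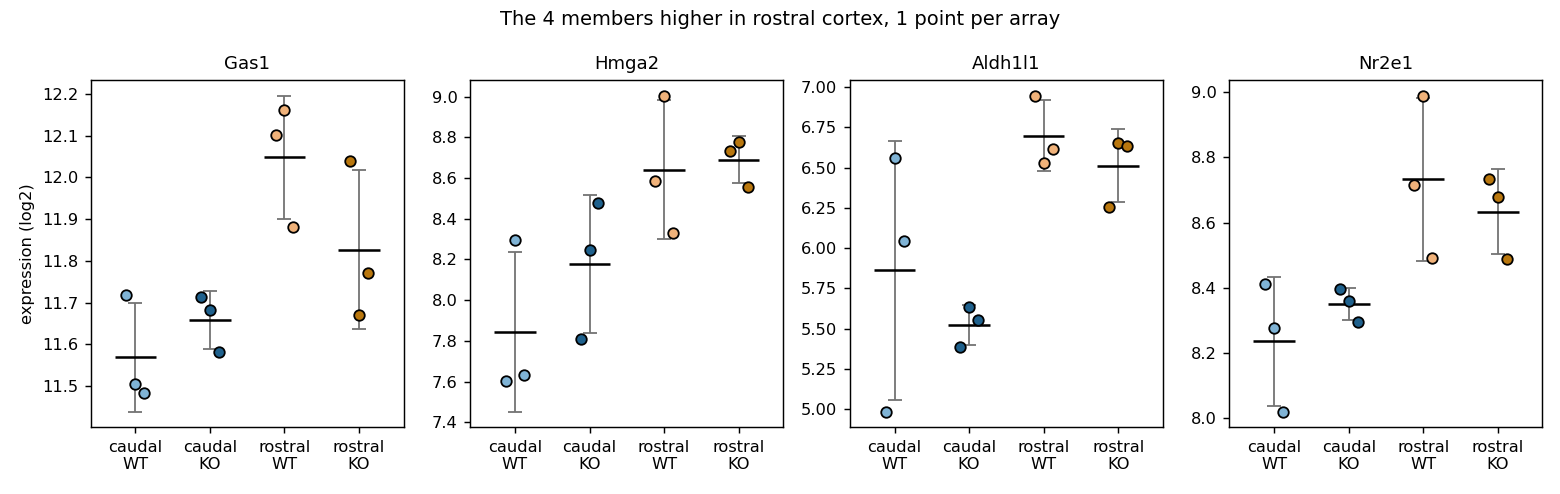
Log2 expression (vertical axes, each panel with its own scale that does not start at 0) of Gas1, Hmga2, Aldh1l1 and Nr2e1 in the 4 groups. Points are arrays, black lines are group means and grey bars are SD (n = 3). Rostral arrays lie above caudal arrays of the same genotype for Hmga2 and Nr2e1, and WT arrays overlap for Aldh1l1 through 1 caudal array at 6.56.

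These calls rested on few arrays. Without 1 array, 0 to 5 members passed, while between 334 and 559 genes passed in all, against 526 with all arrays. Leaving out caudal KO 13 let Cdon, Gas1, Hmga2 and Vim pass, of which Vim alone was higher caudally (0.19, adjusted p = 0.048, limma). Without caudal KO 1, caudal KO 2 or rostral KO 8, 1 member passed, Gas1 each time. Without caudal WT 14 there were 2, Aldh1l1 and Slc1a3, and without rostral WT 10 or rostral WT 12 there were 0, with 10 and 11 at an unadjusted p under 0.05. In the first of these fits 352 genes passed in all. In WT alone 0 members passed without caudal KO 1, caudal KO 2, caudal WT 14, rostral KO 15, rostral WT 10 or rostral WT 12, with 5 to 8 at an unadjusted p under 0.05, while 27 to 128 genes passed in all, against 111 with all arrays. Over all alternatives the adjusted p of the regional difference ran from 0.0048 to 0.11 for Gas1, 0.0061 to 0.072 for Hmga2, 0.0083 to 0.096 for Aldh1l1 and 0.0051 to 0.49 for Nr2e1, and all kept their direction. The difference was also computed apart for animals 1 to 12 (2 arrays a group) and for animals 13 to 16 (1 array a group, so without a spread). In this order it was -0.34 and -0.29 for Gas1, -0.79 and -0.39 for Hmga2, -0.96 and -0.83 for Aldh1l1, and -0.42 and -0.33 for Nr2e1.

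By role, all 9 transcription factors and co-factors had a lower caudal than rostral mean, beside 6484 of all 11785 genes. Their median was -0.29, and 2 passed, beside 3.21% of all genes with rostral higher. The count was 7 of 9 in WT and 9 of 9 in KO, beside 6546 and 6225 of all genes. Averaged over genotypes, the count fell to 7 without caudal KO 13 and to 8 without rostral WT 10. It stayed at 9 of 9 under quantile normalisation and median centring. Sox21 (-0.44, adjusted p = 0.093), Sox1 (-0.30) and Sox2 (-0.29) followed Hmga2 and Nr2e1 without passing. Sox2 read 10.93, 10.86 and 10.65 in caudal KO and 11.08, 10.96 and 10.56 in caudal WT, against 11.03, 11.46 and 11.37 in rostral KO and 11.10, 11.08 and 10.72 in rostral WT. The regions were apart in KO cortex and overlapped in WT cortex. The 8 matrix and receptor genes lay close to 0, from 0.02 to 0.20 with the caudal mean higher, and 0 passed, with 0 at an unadjusted p under 0.05. Their sign was not stable, since 3 turned without caudal WT 4 and 3 with probe sets averaged. The Hedgehog genes were split. The co-receptor genes Cdon (-0.47, adjusted p = 0.078) and Gas1 were higher rostrally, while Gli2 (0.13) and Gli3 (0.21) had higher caudal means without passing. Slc1a3 differed by -0.40 ± 0.12 without passing (adjusted p = 0.074, limma). With caudal and rostral arrays of a genotype paired as a random block, Slc1a3, Cdon and Sox21 passed too. Over 24 alternatives they passed in 6, 5 and 4, with adjusted p from 0.021 to 0.17, 0.022 to 0.18 and 0.0053 to 0.24, and Fabp7 differed by 0.00 ± 0.04.

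**Figure D4:**
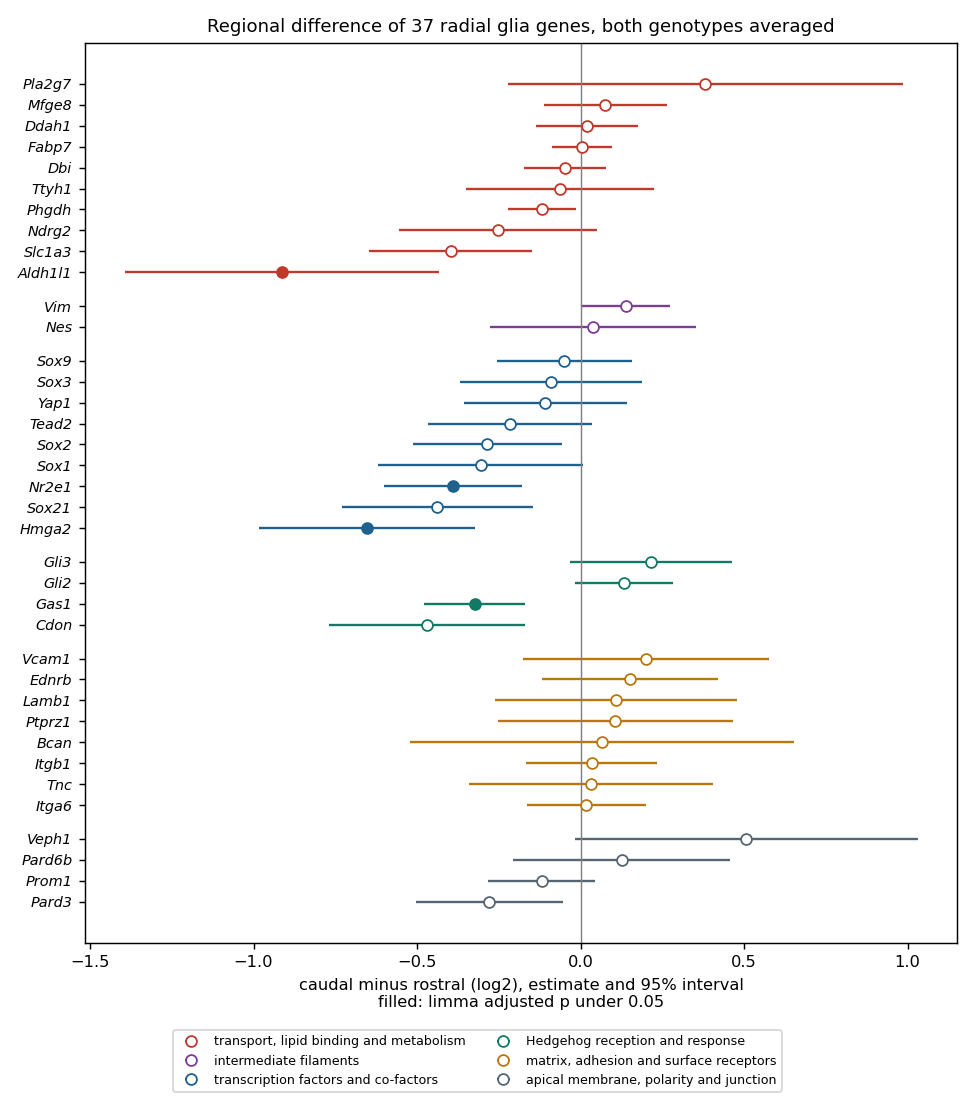
Caudal minus rostral difference (log2, horizontal axis) of the 37 tested radial glia genes (vertical axis), averaged over WT and KO, coloured by role. Points are limma estimates, filled where the adjusted p is under 0.05, and bars are 95% intervals. The 4 filled points, Aldh1l1, Hmga2, Nr2e1 and Gas1, lie below 0, and all 9 transcription factors and co-factors have estimates below 0.

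In the fit of all probe sets, 6 of the 83 tested probe sets of members passed for the regional difference, beside 2.35% of all probe sets, 1.64% with rostral and 0.713% with caudal higher. Higher rostrally were 2 of Gas1, 1 of Hmga2 (1450781_at), 1 of Sox21 (1451835_at, -0.58 ± 0.13) and 1 of Slc1a3 (1426340_at, -0.50 ± 0.12). Higher caudally was 1 of Ednrb (1423594_a_at, 0.48 ± 0.11), whose brightest probe set gave 0.15. The probe sets of Aldh1l1 and Nr2e1 that passed by gene did not pass here (adjusted p = 0.059 and 0.066, limma). Of 26 members with several tested probe sets, all probe sets shared 1 sign for 17 in the regional difference and for 15 in the KO effect.

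Counts of other radial glia genes that passed between regions are read against 4.46% of all genes, 1.26% with caudal and 3.21% with rostral higher. Of 18 tested genes of cortical apical progenitors, 2 passed as higher caudally and 3 as higher rostrally. The growth factor receptor genes Fgfr3 (1.74 ± 0.17) and Fgfr2 (0.52 ± 0.09) were higher caudally, and Pax6 (-0.42 ± 0.06) and the Wnt inhibitor gene Sfrp1 (-0.57 ± 0.09) higher rostrally. Of 13 astroglial genes 1 passed, Fgfbp3 (-1.55 ± 0.15), and of 8 outer radial glia genes 1 passed, the homeodomain-only gene Hopx (-1.02 ± 0.09), both higher rostrally. Of 17 genes of the apical junction and endfoot 0 passed, with 0 at an unadjusted p under 0.05. The Notch targets Hes1 (0.06) and Hes5 (-0.10) did not pass. In the KO comparison none of these lists had a gene past the threshold. Their medians were -0.04, -0.07, 0.02 and -0.01. The gene of smallest p in each was Ccnd1 (0.33 ± 0.07, limma adjusted p = 0.21), Glul (0.31), Hopx (0.26) and Cdh2 (0.13), all higher in KO. Genes also went down: at an unadjusted p under 0.05 there were 2 higher and 3 lower apical progenitor genes. Outer radial glia had 1 higher and 2 lower. The astroglial and the apical junction lists had 1 higher and 0 lower each. This is read against 7.53% of all genes, both directions. Pax6 differed by -0.03, Hes1 by -0.23 and Hes5 by 0.14.

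Markers of other cell types differed in part between regions. The 8 tested genes of the ganglionic eminence, the ventral neighbour of the cortex, averaged 5.15 to 6.29 in caudal KO and 5.33 to 6.08 in caudal WT, against 6.58 to 8.08 in rostral KO and 6.76 to 7.54 in rostral WT. Of these, 7 were higher rostrally and 4 passed, among them Dlx2 (-1.06 ± 0.18), Dlx1 (-1.16 ± 0.24) and Dlx5 (-0.75 ± 0.19). The remaining gene, Lhx6, went the other way (0.48) without passing, at an unadjusted limma p under 0.05. Its caudal arrays lay above the rostral ones in both genotypes, as for 1.39% of all genes. Isl1 was at or below the table's median on all caudal arrays. Olig2, of oligodendrocyte precursors and ventral progenitors, was likewise dim on all caudal arrays. The 3 tested choroid plexus genes averaged 2.44 to 4.14 in caudal KO and 2.94 to 7.35 in caudal WT, where animal 6 was highest, against 5.21 to 6.37 in rostral cortex. The difference of these means lay in Otx2 (-5.30, the 1 that passed), and the other 2 had slightly higher caudal means. Otx2 lay below the table's median on every caudal array except that of animal 6, so the size of its difference is uncertain. The 6 tested genes of the cortical hem, the medial edge of the cortex, averaged 4.41 and 4.19 in caudal KO animals 2 and 13, against 5.50 to 6.61 on the other 10 arrays. None passed between regions (5 of 6 higher rostrally, median -0.66, 3 at an unadjusted p under 0.05) or between genotypes (4 of 6 lower in KO, median -0.66, 2 at an unadjusted p under 0.05). Microglial genes averaged 5.53 to 6.26 in caudal and 6.17 to 6.40 in rostral cortex, and none of 6 passed, with 3 at an unadjusted p under 0.05. The part of these cells in the values of the radial glia genes was not tested. By genotype, the mean of the 11 basal progenitor genes ran from 9.34 to 9.59 in caudal WT against 9.10 to 9.24 in caudal KO, and from 9.58 to 9.68 in rostral WT against 9.28 to 9.50 in rostral KO. Their median KO difference was -0.09, and 9 were lower, of which 2 passed, Neurod4 (-2.26) and Eomes (-0.56 ± 0.08). The other 2, Dll3 (0.34) and Rgs16 (0.29), were higher without passing. Much of the gap between the basal progenitor means lay in Neurod4, which read 3.99 to 5.76 in KO and 6.31 to 7.44 in WT cortex. Its KO arrays lay below the table's median of 5.21 except that of animal 8, so the size of its difference is uncertain. With Neurod4 left out, the means of the remaining basal progenitor genes overlapped between KO and WT arrays in both regions. The radial glia genes averaged 9.03 to 9.23 in caudal WT, 9.01 to 9.14 in caudal KO, 9.09 to 9.20 in rostral WT and 9.14 to 9.24 in rostral KO, so their means overlapped between genotypes in both regions.

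**Figure D5:**
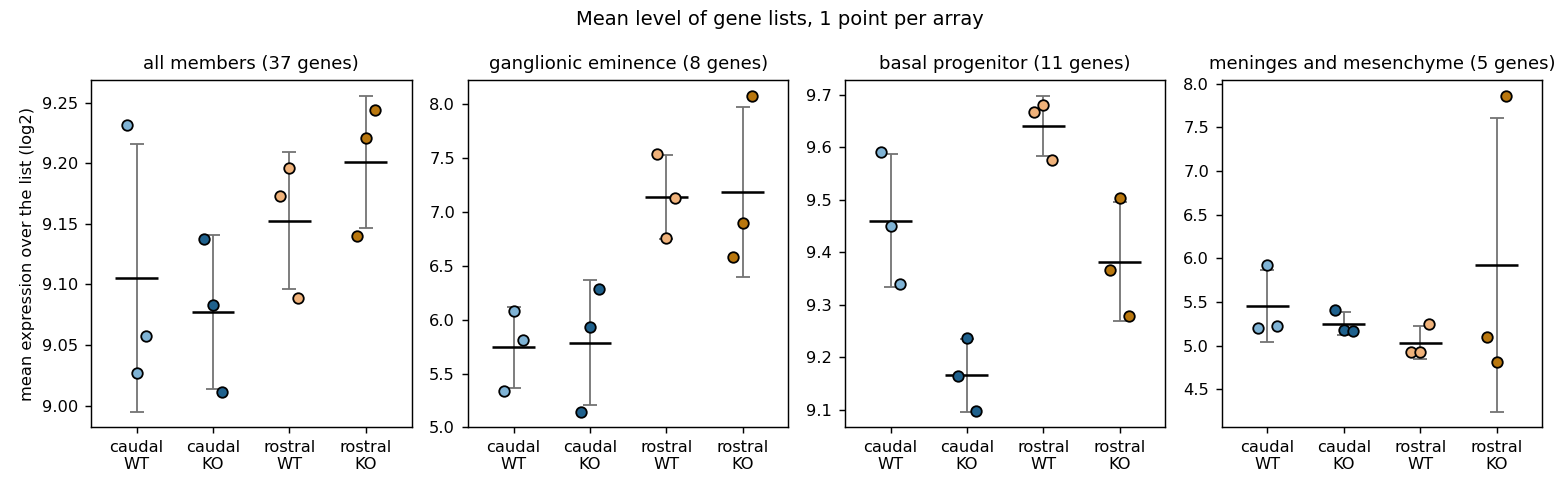
Mean log2 expression over the tested genes of 4 lists (panels, each with its own vertical scale that does not start at 0) in the 4 groups. Points are arrays, black lines are group means and grey bars are SD (n = 3). The means of the radial glia genes overlap between genotypes, and those of the ganglionic eminence genes separate the regions. Those of the basal progenitor genes separate KO from WT within each region, with much of the gap in 1 gene, Neurod4 (-2.26). With Neurod4 left out, they overlap in both regions. For meninges and mesenchyme, 1 rostral KO array (animal 15) stands at 7.86.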

How the data were processed

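The values used were those deposited by the authors, on a log2 scale read from the values (-3.81 to 14.02, with array medians from 5.21 to 5.22), which shows normalisation between arrays by the authors. Its method is not given in the sources used here. Per the labels' protocols, amplification started from 400 ng of total RNA, with a biotin label. Their number, 3 arrays a group, limits the precision. Probe sets were named by the platform annotation, and 34958 of 45101 named 1 gene. Testing required values above the table's median (5.21) on 3 or more of 12 arrays, and the tested probe set of highest mean stood for its gene (11785 genes). All 12 arrays entered 1 fit in limma 3.58.1 (R 4.3.3), with 1 mean per group and a variance trend on intensity (residual degrees of freedom 8, prior 5.37). There were 7 comparisons, tested two-sided and adjusted over all genes by the Benjamini-Hochberg method at 0.05. A second fit took all 24676 tested probe sets. The fit was tested on simulated data. Members, lists and tests were chosen with earlier results of these data known. Values of every array for members with an adjusted p under 0.05 in any comparison were given, as for the 3 members of smallest p in each KO comparison. Fabp7, Tnc, Neurod6, Rgs16 and the promoters of Ednrb and Yap1 were added after their values were seen. Other lists gave at most 4 genes that passed, or failing that at most 2 by p. Alternatives were other normalisation, floors, filters, summaries of probe sets, moderation, blocks, thresholds, fewer groups, and arrays left out.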

Additional observations from a re-analysis of the deposited data

How the results depend on the processing

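No animal number recurs between groups, so the labels pair no arrays. Caudal and rostral pieces may still share embryos. Animals 1 and 7, 2 and 8, 4 and 10, 6 and 12, 13 and 15, and 14 and 16 were therefore taken as a random block (consensus correlation 0.258). Averaged over genotypes, 4 members passed for the regional difference in the main setting, 0 without the intensity trend (11 at an unadjusted p under 0.05), 2 without animals 6 and 12, 7 with the random block (adding Cdon, Slc1a3 and Sox21) and 7 at an adjusted p under 0.1. All genes passing were 526, 420, 372, 946 and 843 in the same order. Without 1 array the count ran from 0 to 5. The count of probe sets, 6, became 3 without a filter, 2 without the trend, 3 without animals 6 and 12, 12 with animals 13 to 16 as a block and 11 with the random block, and ran from 2 to 6 without 1 array. In WT alone the count of 1 became 0 with values raised to the median, without a filter, with probe sets averaged, without the trend, with only the groups compared and without animals 6 and 12, 2 with animals 13 to 16 as a block and 3 with the random block, where all genes passing rose from 111 to 320, and ran from 0 to 1 without 1 array. In KO alone it ran from 0 to 1 (Aldh1l1 without caudal WT 4). For KO against WT averaged over regions, 1 member passed with animals 13 to 16 as a block, Slc1a3, where 20 genes passed in all against 4. Without animals 6 and 12 no member passed for KO against WT, and the median difference of the members was 0.003.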
